A study of Homo sapiens with 3 samples.

Results

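The BCL2 family was examined in H660 cells, a human neuroendocrine prostate cancer cell line, after treatment with JG231, an allosteric inhibitor of the chaperone HSP70. The 10 members were the rows of the deposited gene table whose gene name was BCL2, BCL2L1, MCL1, BAX, BAK1, BBC3, PMAIP1, BCL2L11, BID or BAD, and all 10 were found among 58735 rows. Parental H660 cells were treated for 24 h with vehicle (DMSO), 2.5 μM JG231 or 5 μM JG231, and 1 RNA-seq library was made per condition, so that no p-value or replicate error is given for any gene. The 2 comparisons share their DMSO library. Values are FPKM, a fragment count divided by a gene length and by library depth. The length behind the values was 2587 bases for BAX, whose canonical transcript has 795, and 2212 for BAK1, whose canonical transcript has 2170. Levels of different genes are therefore on 1 scale only as far as these lengths hold. The order, ratios and shares of the members given below depend on them.

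BCL2 family proteins control the mitochondrial route to apoptosis. The effectors BAX and BAK1 form pores in the outer mitochondrial membrane and release cytochrome c, the anti-apoptotic members BCL2, BCL2L1 (BCL-XL) and MCL1 hold the effectors in check, and the BH3-only members (BBC3, also called PUMA, PMAIP1, also called NOXA, BCL2L11, also called BIM, BID and BAD) bind the anti-apoptotic members or act on the effectors. The BH3-only genes are known to respond to stress through different inputs, and much of the regulation of the family takes place on the proteins, which RNA-seq does not measure.

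The FPKM values behaved as whole fragments divided by a gene length, which gave the depth behind each value. The denominators of the FPKM came to 16090000, 20370000 and 24060000 fragments, rounded, in the DMSO, 2.5 μM and 5 μM libraries, and every member had at least 144 fragments in each library. Intervals given below are 95% exact intervals computed from these fragments. They leave out variation between cultures and libraries, which 1 library per condition cannot show. They can be too narrow even for counting error, since PCR copies of 1 molecule are counted as separate fragments. As a yardstick for a single gene, the 500 genes of most similar mean FPKM were used: their log2 differences between the JG231 libraries gave a robust SD, called the spread, which also contains any true difference between the doses. It lay between 0.21 and 0.42 for the members. The labels call the cells prostatic adenocarcinoma. Of 7 neuroendocrine markers 6 were above 1 FPKM in all 3 libraries, with a summed level of 428, 176 and 151 FPKM in DMSO, 2.5 μM and 5 μM, while NEUROD1 was at 0. None of 5 luminal prostate markers reached 1 FPKM, with sums from 0.12 to 0.47, and KLK2 was at 0 in all 3 libraries. Fibroblast markers summed to 0.81 to 1.32 FPKM and immune markers to at most 0.28. Endothelial markers summed to 5.13 FPKM in DMSO, of which CDH5 gave 4.92, and to 0.74 and 0.58 in the JG231 libraries. The part of these differences in the results on the members was not tested.

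Promoter windows of RefSeq on GRCh38.p14, from 250 bases before to 50 bases after a transcription start, were available for 9 of the 10 members. BID had 5 windows, BCL2L1 and BAD had 2 each, and each other member with a window had 1. The windows were searched on both strands for 3 sets of letters. CACGTG is the E-box bound by MYC family proteins including N-Myc, which is the protein this study set out to lower. GAANNTTC is a pair of inverted units of the heat shock element, here called the heat shock pair. TGATGNAA is the core of the composite element bound by C/EBP and ATF proteins such as CHOP and ATF4. The E-box was found in 7.26% of all 35116 windows, the heat shock pair in 6.77% and the composite core in 3.62%. These are shares of windows and not of genes, so matches counted per member cannot be set directly against them. BAX, BBC3 and BID held E-boxes, BAK1 held a heat shock pair, and no window of a member held the composite core. The BID windows with a match overlap and show the same E-box. The BAX window had E-boxes whose first bases lay at positions -138, -93, -45 and -14, counted from 0 at the start, and the BBC3 window had 1 at -232. The stretches of the BAX, BBC3 and BAK1 windows that lie outside annotated exons are shown because they hold matches, which are in capitals. The BAX stretch holds 2 of its 4 E-boxes, those at -138 and -93, since the other two lie nearer the start and outside the stretch. They are the stretch before BAX (chr19:48954625-48954814, plus strand), that before BBC3 (chr19:47232767-47232917, minus strand) and that before BAK1 (chr6:33580294-33580526, minus strand), each read 5′ to 3′ on the strand of the gene.
BAX: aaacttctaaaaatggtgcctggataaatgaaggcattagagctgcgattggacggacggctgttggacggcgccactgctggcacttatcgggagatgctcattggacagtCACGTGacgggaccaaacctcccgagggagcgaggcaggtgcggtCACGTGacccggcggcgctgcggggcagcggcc
BBC3: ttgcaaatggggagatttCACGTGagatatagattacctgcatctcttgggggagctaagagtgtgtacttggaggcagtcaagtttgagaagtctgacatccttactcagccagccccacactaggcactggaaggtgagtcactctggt
BAK1: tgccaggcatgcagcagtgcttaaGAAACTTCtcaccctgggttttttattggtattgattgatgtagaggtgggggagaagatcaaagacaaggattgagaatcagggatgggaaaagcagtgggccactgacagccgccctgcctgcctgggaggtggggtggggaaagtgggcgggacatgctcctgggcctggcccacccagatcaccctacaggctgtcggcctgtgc
A match to these letters describes the sequence and does not show binding.

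In DMSO the anti-apoptotic MCL1 was the most abundant member at 50.4 FPKM, followed by the BH3-only PMAIP1 at 34.4 FPKM. BCL2 (14.8 FPKM), BAX (14.4) and BCL2L1 (13.96) came next, and the counting intervals of these neighbours overlapped. BAD (9.06 FPKM) and BCL2L11 (8.85) could not be told apart either, nor could BBC3 (6.10) and BID (5.65). BAK1 was the lowest at 4.05 FPKM. With JG231 this order was different. PMAIP1 stood first and MCL1 second at both doses, BBC3 came after them, and BAK1 lay above BCL2. BID was the lowest member in both JG231 libraries.

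**Figure D1:**
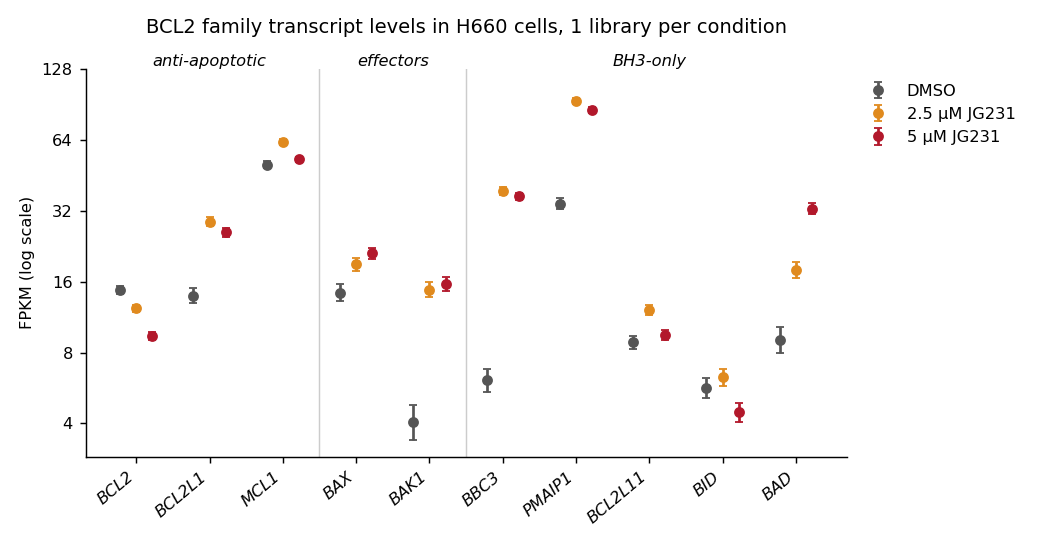
FPKM (log scale) of the 10 BCL2 family genes in the DMSO, 2.5 μM JG231 and 5 μM JG231 libraries, 1 point per library, with bars for the 95% counting interval. BBC3, BAK1, PMAIP1 and BCL2L1 have both JG231 points well above DMSO, BAD climbs from 9.06 to 17.9 and 32.7 FPKM, and BCL2 goes from 14.8 to 12.3 and 9.42 FPKM.

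The change of a gene is the log2 ratio of its JG231 to its DMSO value after 0.1 FPKM was added to both. This form follows the study's methods. The added 0.1 understates the change of low genes. The interval given with a change or with a difference between doses is that of the ratio of fragment rates, without the added 0.1. A gene was counted as higher or lower when it had over 1 FPKM in either library and a log2 change past 0.25, also from the methods. All 10 members passed the FPKM filter in both comparisons. At 5 μM 6 of 10 members were higher and 2 were lower, while 36.5% of the 15765 genes tested were higher and 45.1% were lower. At 2.5 μM 8 of 10 members were higher and 1 was lower, against 36.4% and 43.4% of 15746 genes. Past a log2 change of 1, 4 members were higher and 0 lower at 5 μM, where 14.7% of genes were higher and 24.3% lower, and 4 were higher and 0 lower at 2.5 μM, where the shares were 12.9% and 21.7%. The median log2 change of the members was 0.72 at 5 μM and 0.71 at 2.5 μM, and that of all genes tested was -0.11 and -0.08. In bulk RNA, a change in the share of dying cells and a change of RNA per cell cannot be told apart.

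**Figure D2:**
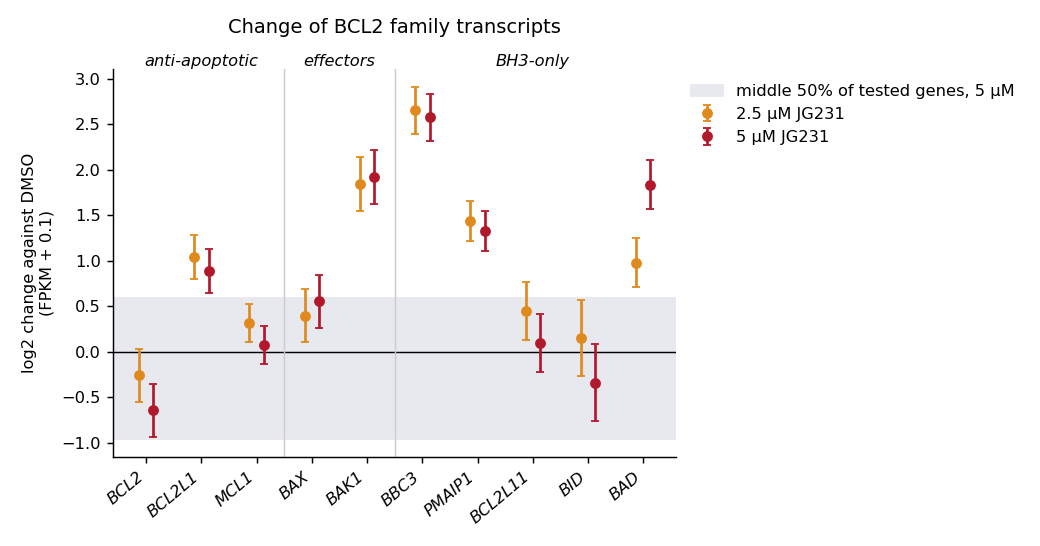
Log2 change against DMSO (FPKM + 0.1) of the 10 members at 2.5 μM and 5 μM JG231, with bars of 1 spread of single genes of similar expression on each side. The grey band holds the middle 50% of all tested genes at 5 μM, and BBC3, BAK1, BAD, PMAIP1 and BCL2L1 lie above it at 5 μM while BCL2 lies inside its lower part.

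The counts depended on scaling. Rescaling the libraries to an equal sum that leaves out mitochondrial and small RNA genes lowered the median of all genes by 0.37 at 5 μM and by 0.29 at 2.5 μM on the log2 scale. The members higher and lower were then 5 and 4 at 5 μM, and 5 and 1 at 2.5 μM. Among all genes, 3704 were then higher and 9707 lower at 5 μM, and 3975 and 9090 at 2.5 μM. Over all genes, those higher made up 44.7% of the genes called at 5 μM as deposited and 27.6% after this rescaling (45.6% and 30.4% at 2.5 μM). With the trend of the changes with transcript length removed, 6 members were higher and 1 lower at 5 μM, with BCL2L11 counted in place of BAX, and 7 and 0 at 2.5 μM. Over all genes, those higher made up 42.7% and 44.3% of the genes called under this setting, with 5347 higher and 7177 lower at 5 μM, and 5478 and 6899 at 2.5 μM. BBC3, BAK1, PMAIP1, BAD and BCL2L1 stayed past 0.25 at both doses under each of the 8 alternative scalings, pseudocounts and corrections. Past a limit of 1 as deposited, BCL2L1 was not counted at 5 μM (0.89) nor BAD at 2.5 μM (0.98).

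**Figure D3:**
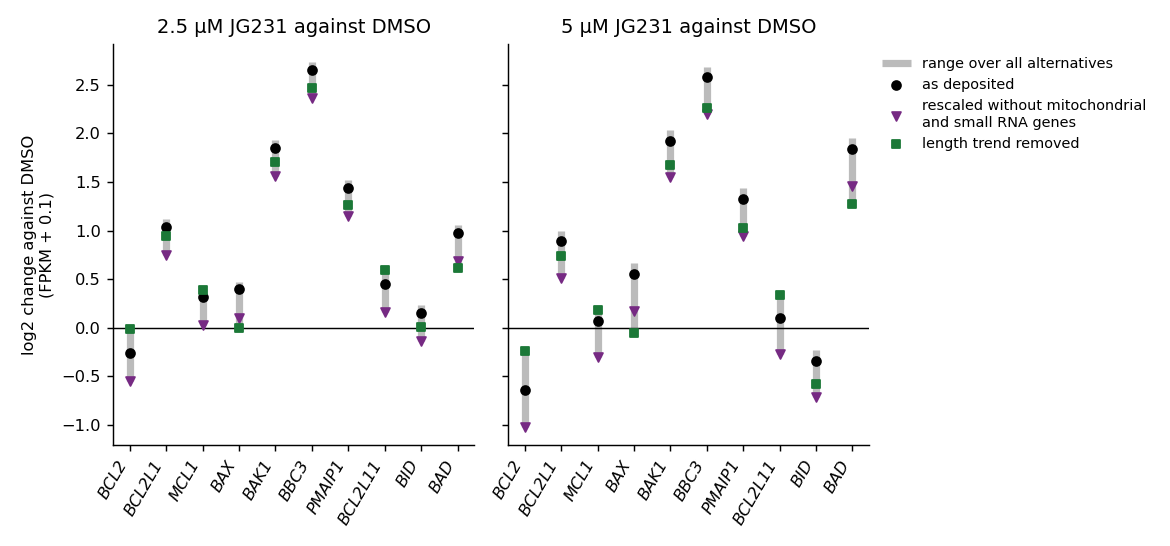
Log2 change against DMSO (FPKM + 0.1) of each member at 2.5 μM (left) and 5 μM (right) as deposited, after rescaling without mitochondrial and small RNA genes and after removal of the length trend, with grey lines for the range over all 8 alternatives. BBC3 stays between 2.20 and 2.69 at 5 μM, whereas the range of BAX, from -0.055 to 0.66, includes 0.

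Among the BH3-only members, BBC3 (ENSG00000105327, chromosome 19, 47220822 to 47232766 on GRCh38) went from 6.10 FPKM in the DMSO library to 38.9 FPKM with 2.5 μM and 36.9 FPKM with 5 μM. PUMA, its product, binds all the main anti-apoptotic proteins. Both JG231 libraries lay far above DMSO, with FPKM ratios of 6.38 and 6.05. The log2 change was 2.65 at 2.5 μM (95% interval 2.502 to 2.85) and 2.58 at 5 μM (2.43 to 2.77), against a spread of 0.26. Of all genes tested, 3.26% at 2.5 μM and 3.37% at 5 μM had a change at least this high, and it was the largest change among the 10 members at either dose. The 2 doses differed by -0.08 (-0.15 to 0.0014), less than the spread. MIR3190 and MIR3191, which overlap 2.51% and 2.39% of its exon length, were at 0 in all 3 libraries.

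PMAIP1 (ENSG00000141682, chromosome 18, 59899996 to 59904305) measured 34.4 FPKM without JG231, 93.5 FPKM with 2.5 μM and 86.2 FPKM with 5 μM. NOXA, its product, binds MCL1 above all. Both JG231 values were far above the DMSO value. The log2 changes of 1.44 (1.35 to 1.54) and 1.32 (1.24 to 1.42) stood against a spread of 0.22.

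BAD (ENSG00000002330, chromosome 11, 64269830 to 64284704), whose product is held in the cytosol by 14-3-3 proteins when phosphorylated by survival kinases, measured 9.06 FPKM in the DMSO library, 17.9 FPKM with 2.5 μM and 32.7 FPKM with 5 μM. It was the member whose level differed most between the doses. The log2 difference of 5 μM against 2.5 μM was 0.86 (0.73 to 1.004), against a spread of 0.27, and every other member differed by at most 0.49 in size. Its log2 changes against DMSO were 0.98 (0.77 to 1.20) at 2.5 μM and 1.84 (1.65 to 2.05) at 5 μM. BAD has a short canonical transcript of 929 bases, and across 11200 protein-coding genes the log2 change ran against canonical transcript length (Spearman's rho -0.37 at 5 μM and -0.26 at 2.5 μM, across genes, which are not replicates). With that trend removed its changes were 0.61 and 1.28. Its exons also overlap those of GPR137 on the opposite strand over 404 bases, 23.7% of its exon length. GPR137 measured 11.1, 8.35 and 14.7 FPKM in DMSO, 2.5 μM and 5 μM. The libraries were stranded, but whether fragments were assigned by strand is not given in the sources used here.

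BCL2L11 and BID, the BH3-only members that can activate the effectors directly, had smaller changes. BCL2L11 (ENSG00000153094, chromosome 2, 111119378 to 111168444) measured 8.85 FPKM in DMSO, 12.1 FPKM with 2.5 μM and 9.51 FPKM with 5 μM, and MIR4435-2HG, at 0.60 to 0.84 FPKM, overlaps 10.8% of its exon length on the opposite strand. Its log2 change was 0.45 (0.34 to 0.57) at 2.5 μM, past its spread of 0.32, but 0.16 when rescaled with mitochondrial and small RNA genes left out, under the limit of 0.25. It was 0.10 (-0.01 to 0.22) at 5 μM, where it was negative under 3 scalings, the lowest being -0.27, and 0.34, past the limit and the spread, with the length trend removed. BID (ENSG00000015475, chromosome 22, 17734138 to 17774770) measured 5.65 FPKM in DMSO, 6.29 FPKM with 2.5 μM and 4.45 FPKM with 5 μM. Its log2 changes of 0.15 (-0.03 to 0.34) and -0.34 (-0.54 to -0.15) were both within its spread of 0.42. At 5 μM the value was -0.47 to -0.71 and past the spread under 4 alternatives (both rescalings, recovered fragments and the length trend removed), and -0.23, under the limit of 0.25, when centred on the median gene. The sign at 2.5 μM was negative after the rescaling without mitochondrial and small RNAs.

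The 2 effectors were higher at both doses by unequal amounts. BAK1 (ENSG00000030110, chromosome 6, 33572547 to 33580293), which sits in the outer mitochondrial membrane, measured 4.05 FPKM in DMSO, 14.8 FPKM with 2.5 μM and 15.6 FPKM with 5 μM. These stood on 144, 668 and 830 fragments. The log2 changes were 1.85 (1.61 to 2.14) and 1.92 (1.69 to 2.21), against a spread of 0.30, and 4.93% and 4.95% of all genes tested were at least as high. BAX (ENSG00000087088, chromosome 19, 48954815 to 48961798), which is mostly cytosolic until activated, measured 14.4 FPKM in DMSO, 18.95 FPKM with 2.5 μM and 21.2 FPKM with 5 μM. Its log2 changes were 0.39 (0.25 to 0.55) and 0.55 (0.42 to 0.70), both past its spread of 0.29, and 30.5% and 26.3% of all genes were at least as high. BAX has the shortest canonical transcript of the members, 795 bases, and with the length trend removed its change was 0.00091 at 2.5 μM and -0.055 at 5 μM. When rescaled with mitochondrial and small RNA genes left out it was 0.10 and 0.18, under the limit of 0.25. The ratio of BAK1 to BAX within a library, which no common factor for a library can alter, was 0.281 without JG231, 0.782 with 2.5 μM and 0.737 with 5 μM. GGNBP1, which overlaps 4.11% of the exon length of BAK1 on the opposite strand, was at 0 in all 3 libraries. A BAK1 pseudogene, BAK1P1, was at 0.49, 1.31 and 0.07 FPKM in DMSO, 2.5 μM and 5 μM.

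The 3 anti-apoptotic members did not move together. BCL2L1 (ENSG00000171552, chromosome 20, 31664452 to 31723989) measured 13.96 FPKM in DMSO, 28.7 FPKM with 2.5 μM and 25.9 FPKM with 5 μM. Its log2 changes of 1.04 (0.92 to 1.17) and 0.89 (0.77 to 1.02) stood against a spread of 0.24. When rescaled with mitochondrial and small RNA genes left out, the change at 5 μM was 0.51. The non-coding gene ABALON overlaps 41.3% of its exon length on the opposite strand, and was at 0, 0.026 and 0.68 FPKM in DMSO, 2.5 μM and 5 μM. BCL2L1 encodes a long anti-apoptotic and a short pro-apoptotic splice form, which gene-level values do not separate.

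MCL1 (ENSG00000143384, chromosome 1, 150560895 to 150579738), a protein of very short half-life, measured 50.4 FPKM in DMSO, 62.9 FPKM with 2.5 μM and 53.1 FPKM with 5 μM. The 2.5 μM library was the highest, and the 5 μM library was close to DMSO. The log2 change was 0.32 (0.26 to 0.38) at 2.5 μM, past its spread of 0.21, but 0.03 when rescaled with mitochondrial and small RNA genes left out and 0.22 with recovered fragments scaled to their sum, both under the limit of 0.25. It was 0.07 (0.01 to 0.14) at 5 μM, within it, and the 5 μM value was negative under 3 scalings, the lowest being -0.31. ADAMTSL4-AS1 on the same strand overlaps 5.27% and ADAMTSL4 on the opposite strand 0.69% of its exon length, and both stayed under 0.32 FPKM.

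BCL2 (ENSG00000171791, chromosome 18, 63123346 to 63320128) was the only member lower at both doses in the deposited values. Its level was 14.8 FPKM without JG231, 12.3 FPKM with 2.5 μM and 9.42 FPKM with 5 μM. The log2 change was -0.26 (-0.34 to -0.19) at 2.5 μM, within its spread of 0.29 and barely past the limit of 0.25, and -0.64 (-0.72 to -0.57) at 5 μM, past the spread. Of all genes tested, 32.6% were at least as low at 5 μM. BCL2 has the longest canonical transcript of the members, 6881 bases. With the length trend removed its change was -0.24 at 5 μM and -0.01 at 2.5 μM, and when rescaled with mitochondrial and small RNA genes left out it was -1.02 and -0.55.

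The makeup of the 10 members was then compared within each library, a measure that does not depend on scaling between libraries. It does depend on the trend with transcript length, which was removed from the changes above but not from the shares. The summed FPKM of the 10 members was 162, 306 and 295 in DMSO, 2.5 μM and 5 μM. The 3 anti-apoptotic members held 48.96% of this sum in the DMSO library, 33.9% with 2.5 μM and 29.99% with 5 μM. The 5 BH3-only members held 39.6%, 55.1% and 57.5%, and the 2 effectors 11.4%, 11.0% and 12.5%. These shares turned on which BH3-only genes were counted. With BMF, a BH3-only gene outside the 10 that was lower with JG231, added to the sum, the BH3-only share was 57.4%, 57.3% and 59.4% in DMSO, 2.5 μM and 5 μM, and the anti-apoptotic share was 34.5%, 32.2% and 28.7%. The anti-apoptotic BCL2L2 (7.54, 8.48 and 8.08 FPKM) and BOK, a relative of the effectors (7.43, 4.91 and 8.14 FPKM), were left out of this sum. Of the sum over the 10 members, BBC3 held 3.77% without JG231, 12.7% with 2.5 μM and 12.5% with 5 μM, and PMAIP1 held 21.3%, 30.5% and 29.2%. BAD held 5.61%, 5.85% and 11.1%. The share of MCL1 was 31.2%, 20.5% and 18.0% in DMSO, 2.5 μM and 5 μM, and that of BCL2 was 9.14%, 4.02% and 3.20%. The share of BCL2L1 stayed between 8.64% and 9.38%. These are shares of transcripts per length and say nothing of the proteins.

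**Figure D4:**
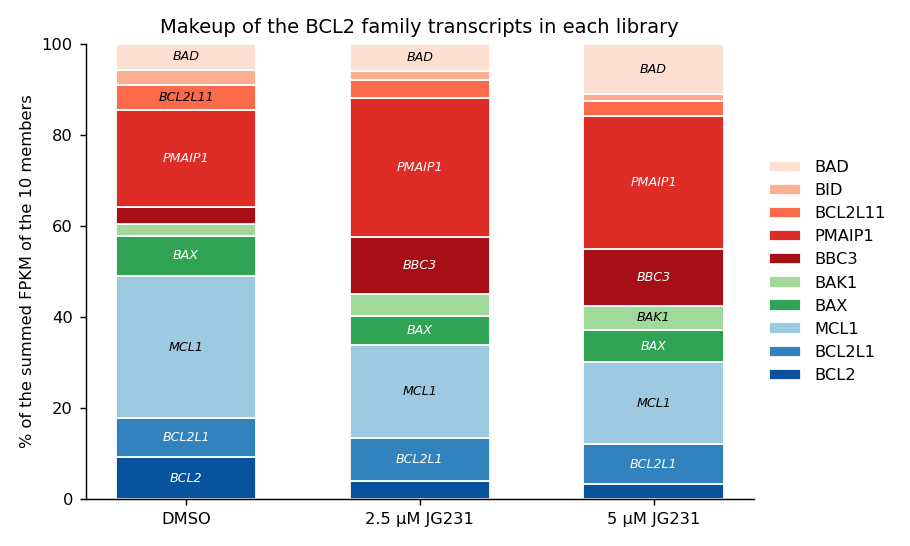
Share of the summed FPKM of the 10 members held by each member (stacked bars, %) in the DMSO, 2.5 μM and 5 μM JG231 libraries, with anti-apoptotic members in blue, effectors in green and BH3-only members in red. The blue part shrinks from 48.96% in DMSO to 29.99% at 5 μM and the red part grows from 39.6% to 57.5%, in bars that leave out BMF, with which the BH3-only share is 57.4% in DMSO and 59.4% at 5 μM. The length trend was not removed from these shares.

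Ratios of partners gave the same data in pairs. PMAIP1 to MCL1, a BH3-only protein and its main target, had a ratio of 0.682 without JG231, 1.49 with 2.5 μM and 1.62 with 5 μM. BBC3 to BCL2 was 0.413, 3.16 and 3.91. BAX to BCL2, the members with the shortest and the longest canonical transcript, was 0.975, 1.54 and 2.25. The log2 change of this ratio was 0.66 at 2.5 μM and 1.20 at 5 μM. Without the length trend it was 0.011 and 0.19. For BBC3 to BCL2 it was 2.93 and 3.24, and 2.47 and 2.51 with that trend removed, and for PMAIP1 to MCL1 1.12 and 1.252, and 0.88 and 0.84. The ratio of MCL1 to BCL2L1 was 3.61, 2.19 and 2.05.

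The other genes of the pathway were taken from 6 lists with 65 genes. The counts of each list are to be read against all genes tested, of which 36.5% were higher and 45.1% lower at 5 μM, and 36.4% and 43.4% at 2.5 μM. With 7 to 16 genes in a list, these counts are a description. Of 13 further BCL2 family genes, 8 passed the FPKM filter at 5 μM, with 1 higher and 1 lower, and 9 passed at 2.5 μM, with 3 higher and 2 lower. Their medians were 0.11 and 0.07. BMF, a BH3-only gene whose product is tied to the cytoskeleton, had 67.5 FPKM in DMSO, above every one of the 10 members, and 16.4 and 13.6 FPKM at 2.5 μM and 5 μM, log2 changes of -2.04 and -2.30. BIK, a BH3-only gene whose product resides in the endoplasmic reticulum, had 8.48, 20.4 and 17.8 FPKM, log2 changes of 1.26 and 1.06. With the length trend removed the changes were 0.90 and 0.51 for BIK and -1.91 and -2.11 for BMF. BNIP3, a gene of mitophagy, had log2 changes of 0.30 and 0.16, which were 0.05 and -0.23 without the length trend. BCL2A1 and BCL2L10, further anti-apoptotic genes, were at 0 in all 3 libraries. BCL2L2, another anti-apoptotic gene, was expressed, at 7.54 FPKM in DMSO, 8.48 with 2.5 μM and 8.08 with 5 μM. Its log2 changes were 0.17 and 0.10.

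Of 10 genes that act after the outer membrane is opened, 9 passed the filter, with 5 higher and 3 lower at 5 μM (36.5% and 45.1% of all genes), and 4 higher and 2 lower at 2.5 μM (36.4% and 43.4%). XIAP, a caspase inhibitor, had 12.6, 9.41 and 5.89 FPKM, and ENDOG, a mitochondrial nuclease, had 12.4, 23.2 and 23.1 FPKM. At 5 μM the log2 change of XIAP was -1.08 and became -0.59 with the length trend removed, and that of ENDOG went from 0.89 to 0.40. Among 8 outer membrane partners of BAX, BAK1 and BID, all of which passed the filter, 3 were higher and 4 lower at 5 μM, and 2 and 3 at 2.5 μM, near the shares of all genes at 5 μM (36.5% and 45.1%). VDAC2, a channel that holds BAK1 and BAX at mitochondria, had 91.1 FPKM in DMSO, 172.5 and 180.2 with JG231, and log2 changes of 0.92 and 0.98, or 0.67 and 0.59 with the length trend removed. VDAC3 had log2 changes of -0.49 and -0.77 (-0.75 and -1.19 with that trend removed), and MFN2, a mitofusin, 0.63 and 0.61.

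Of 11 transcription factors reported to act on BH3-only genes, 7 were higher and 1 lower at 5 μM (36.5% and 45.1% of all genes), and 8 higher and 0 lower at 2.5 μM (36.4% and 43.4%), with medians of 0.69 and 1.02 over the 10 that passed the filter. DDIT3, which encodes CHOP, had log2 changes of 3.76 at 2.5 μM and 3.996 at 5 μM. ATF3 measured 12.9 FPKM in DMSO, 151.9 FPKM with 2.5 μM and 191.3 FPKM with 5 μM. MYC had 4.62, 49.9 and 45.5 FPKM, log2 changes of 3.40 and 3.27. MYCN, which encodes N-Myc, was below 1 FPKM in each library, at 0.69, 0.23 and 0.56.

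Of 7 genes for the turnover of MCL1 protein, 3 were higher and 2 lower at 5 μM (36.5% and 45.1% of all genes), and 3 were higher and 3 lower at 2.5 μM (36.4% and 43.4%). HUWE1, a ubiquitin ligase for MCL1, measured 17.3 FPKM in DMSO, 8.07 FPKM with 2.5 μM and 6.45 FPKM with 5 μM. Its log2 changes of -1.09 and -1.41 became -0.64 and -0.70 with the length trend removed. CDC20, an activator of the anaphase-promoting complex, had log2 changes of 0.85 and 1.14, and TPT1, which encodes an MCL1-binding protein, 0.84 and 0.96. Of 16 kinases and binding proteins of BAD, BCL2L11 and BMF, 7 were higher and 3 lower at 5 μM (36.5% and 45.1% of all genes), and 7 higher and 4 lower at 2.5 μM (36.4% and 43.4%). PIM1 and PIM3, kinases that can phosphorylate BAD, had the highest changes of this list at both doses. PIM1 measured 19.5 FPKM in DMSO, 135 FPKM with 2.5 μM and 140.2 FPKM with 5 μM, and PIM3 had 27.8, 121.4 and 106.2. AKT2, another BAD kinase, had log2 changes of -0.55 and -1.06. The 14-3-3 gene SFN had log2 changes of 1.05 and 0.94 (0.76 and 0.49 with the length trend removed), while the 6 other 14-3-3 genes lay between -0.18 and 0.36 at both doses.

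**Figure D5:**
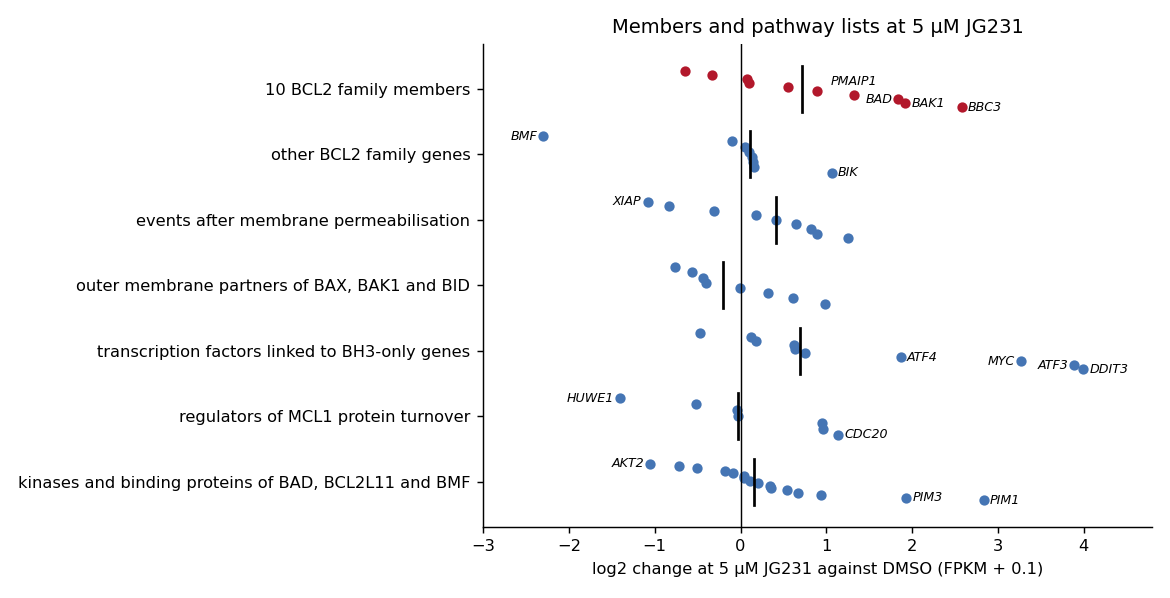
Log2 change at 5 μM JG231 against DMSO (FPKM + 0.1) of the 10 members (red) and of the genes of 6 pathway lists (blue) with over 1 FPKM in either library, 1 point per gene, with black bars at the medians and names of the genes given in the text whose change is past 1, and of ATF4. DDIT3 at 3.996 lies farthest right and BMF at -2.30 farthest left.

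The genes with values most like those of a member were found among 7042 protein-coding genes with a mean of at least 5 FPKM, by the distance over the log2 changes at both doses. For BBC3, the member with the largest rise at 5 μM, the nearest were EMC6, CXCL8, ASS1, INHBE and RAB3IL1, at distances of 0.15 to 0.17. CXCL8, a chemokine gene, measured 32.5 FPKM in DMSO, 207.2 FPKM with 2.5 μM and 215.1 FPKM with 5 μM. For BCL2, the member with the largest fall at 5 μM, the nearest were UBA6, ZBTB6, TMEM87B, KCTD20 and ROCK1, at distances of at most 0.026. With 2 changes per gene such a likeness describes size only.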

How the data were processed

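RNA of H660 cells was sequenced by the authors in 3 libraries, 1 per condition. According to the paper's methods reads were aligned with HISAT and quantified with StringTie as FPKM, and the submitters' processing notes name HISAT2, featureCounts and GRCh38. Tool versions and the annotation release are not given in the sources used here. The deposited table holds FPKM values, not scaled further between libraries.

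Identifiers of 58207 of the 58735 rows were found in GENCODE release 44. The value of 1 fragment was read from genes with a single transcript. With it, the 3 values of a gene fell on whole fragments (within 0.002) for some whole gene length in all 13722 of the matched genes that averaged 1 FPKM or more. Where several lengths were possible, the one nearest GENCODE 44 was used if within 0.8 to 1.25 of it, and otherwise the smallest not under 0.8 of the canonical transcript. For MCL1 this gave the smaller of the possible lengths, for BAK1 and BID the larger. No count model was applied, since the values are FPKM with 1 library per condition.

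Named genes were the 10 members, up to 3 genes per pathway list (mean FPKM of at least 1, largest change at 5 μM, same sign at both doses) and the 5 nearest genes of 2 members. Genes whose exons overlap a member were also named. BCL2A1, BCL2L10, BCL2L2, BOK, MYCN, SFN and BAK1P1 were added after their values were seen. Some genes of the lists are not reported here. The members and lists were chosen with earlier results of these data known. The length trend was removed with lowess (fraction 0.3). The scripts were tested on simulated data. Tables were handled in pandas 2.3.3 under Python 3.11.15, intervals came from scipy 1.17.1, lowess from statsmodels 0.14.6, and figures from matplotlib 3.10.9.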

Additional observations from a re-analysis of the deposited data

How the results depend on the processing

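No paired analysis was possible because each condition had 1 library, and for the same reason no replicate could be left out. The median log2 change of the 10 members at 5 μM was 0.72 as deposited, 0.59 with the libraries rescaled to a common sum, 0.34 with mitochondrial and small RNA genes left out of that sum, 0.54 with the length trend removed and 0.57 with recovered fragments scaled to their sum, an alternative chosen after seeing the data. At 2.5 μM it was 0.71 as deposited and 0.42 with those genes left out of the sum. It was positive under every alternative. With a limit of 1 on the log2 change in place of 0.25, 4 members were counted at 5 μM instead of 8, and 4 at 2.5 μM instead of 9. The change of BAX at 5 μM was -0.055 with the length trend removed, the only counted member whose sign turned; the cause was not tested. The pseudocount (1 or 0.01) and the summing of rows with the same name turned no sign, and BCL2 at 2.5 μM was no longer past 0.25 with a pseudocount of 1 (-0.24), a common sum (-0.21), centring on the median gene (-0.18) or the length trend removed (-0.01). The shares within the family did not move when such rows were summed, and they were not computed with the length trend removed. The anti-apoptotic share in DMSO, 2.5 μM and 5 μM was 34.5%, 32.2% and 28.7% with BMF added to the sum, and 33.2%, 30.2% and 27.0% with BMF, BIK and HRK added, both chosen after seeing the data. BCL2L2 and BOK were left out of both sums. With 1 library per condition, differences of the size of the single-gene spread cannot be resolved.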

Other observations

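The denominators of the FPKM values were smaller than the fragments recovered over all matched genes. The recovered fragments summed to 16700000, 22570000 and 27810000 in the DMSO, 2.5 μM and 5 μM libraries, which is 1.04, 1.11 and 1.16 times the denominators of 16090000, 20370000 and 24060000.

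The family also has a BH3-only member outside the 10, BMF, whose value went against those of BBC3, PMAIP1 and BAD. It stood on 5918 fragments in DMSO, 1816 at 2.5 μM and 1784 at 5 μM. With BMF, BIK and HRK all added to the 10 members, the BH3-only share of the summed FPKM was 59.0% in DMSO, 60.03% at 2.5 μM and 61.7% at 5 μM.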
